A study of Mus musculus with 6 samples.

Results

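The genes described here are 10 that encode the core of the NF-kappaB pathway: the 5 subunits of the transcription factor (Nfkb1, Nfkb2, Rel, Rela and Relb), the 3 classical inhibitors Nfkbia, Nfkbib and Nfkbie, the atypical inhibitor Nfkbiz, and Tnfaip3, a ubiquitin-editing brake on the pathway. They were chosen by gene symbol from a table of 19386 genes, in which all 10 were found and all 10 carried an adjusted p-value, as did 12082 genes in all. RNA was sequenced from macrophages grown from the bone marrow of wild-type C57BL/6 mice that had been exposed to room air (3 libraries) or to cigarette smoke (3 libraries). Marrow depleted of red cells was cultured with L929 cell supernatant, a source of macrophage growth factor, and harvested on day 11; both groups share this culture, and the labels name no agent added to the dish. The age and sex of the mice, the smoke dose and whether each library came from an animal of its own are not given in the sources used here. The p-values therefore measure the spread between libraries, which may be technical: the 6 described here for splicing, and all 24 of the authors' fit for expression.

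In resting macrophages NF-kappaB dimers are held in the cytoplasm by IkappaB proteins, whose ankyrin repeats cover the nuclear import signal of the subunits. Signals from Toll-like, interleukin and tumour necrosis factor receptors activate the IKK kinase complex, which marks IkappaB for destruction and frees the dimers to enter the nucleus. Several inhibitor genes, Nfkbia and Tnfaip3 among them, are themselves switched on by NF-kappaB and so close a negative feedback loop. In macrophages the pathway is known for driving cytokine, chemokine and survival genes.

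Macrophage identity was borne out by the fixed markers: all 10 macrophage genes were present, with room air means from 401 (Mertk) to 23170 (Lyz2) normalized counts. Of these, Spi1 was the one past an adjusted p of 0.05, with a log2 fold change of 0.41 in the authors' deposited table (DESeq2, adjusted p 0.00813), and 0 of the 10 were past it with the trend in GC content and transcript length removed. Markers of other cells summed to at most 54.8 normalized counts in room air, against 57400 for the macrophage genes. The 10 neutrophil genes had 4 listed, with a summed mean of 0.322 normalized counts in room air and 0.508 after smoke, and the defining Mpo, Elane and Ly6g were not among them. The 6 stromal genes summed to 43.6 in room air and 9.48 after smoke, and the summed B cell genes to 6.68 and 4.14. The highest sums were those of mast cell and basophil genes, 54.8 and 48.2, of which Kit made up 54.5 in room air, and T cell genes came to 31.7 and 26.5. Dendritic cell genes summed to 1.66 and 1.02 and erythroid genes to 0 and 0.508, and the part of any of these cells in the results was not tested. Splicing was measured per library, and cigarette smoke replicate 1 stood apart there, with no value in 4169 of 10376 events against 1 to 398 in the others. The gene table holds group means and the authors' comparison, so no expression value of a single library entered the results, and the depth of each library is unknown.

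After smoke exposure 2 of the 10 genes were higher at an adjusted p under 0.05 and none was lower. Both were classical inhibitors, Nfkbia and Nfkbib. Over all genes tested in the authors' deposited table, 4.15% were higher by that rule, 3.53% were lower and 7.69% differed in either direction. The median log2 fold change of the 10 was 0.15, against -0.0029 over all genes tested, and 7 of the 10 were above 0, where 49.7% of all genes were. A trend with GC content and transcript length was fitted to the fold changes of all genes, and its strength is not given here. Once it was taken out 0 of the 10 passed the threshold, against 1.27% of all genes, and their median was 0.03. With the p-values adjusted over every gene that had one, 1 of the 10 passed, against 3.55% of genes, and at an adjusted p under 0.1 the count was 2, against 12.8%.

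Among the inhibitors, Nfkbia had the lowest adjusted p. It encodes IkappaB-alpha, the inhibitor that is degraded and made again most rapidly when the pathway is activated. The gene (ENSMUSG00000021025.8) lies on chromosome 12 of GRCm38, from 55489410 to 55492647 on the minus strand. In the authors' deposited table its mean was 256.5 normalized counts in room air and 374.9 after smoke. On the log2 scale the rise was 0.56 (SE 0.15; DESeq2 adjusted p 0.00967), or 1.48-fold with a 95% interval from 1.20 to 1.82. With the GC and length trend removed it was 0.33, with a 95% interval from 0.03 to 0.64 and an adjusted p of 0.368, so the call rests on leaving that trend in.

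The Nfkbia promoter is shown because it carries the kappaB consensus decamer, the DNA word bound by NF-kappaB dimers, 29 bases before the RefSeq start site (chr12:55492648-55492897, GRCm38.p6, minus strand, 250 bases up to the start). Capitals mark the decamer, which here reads on the opposite strand.
Nfkbia promoter: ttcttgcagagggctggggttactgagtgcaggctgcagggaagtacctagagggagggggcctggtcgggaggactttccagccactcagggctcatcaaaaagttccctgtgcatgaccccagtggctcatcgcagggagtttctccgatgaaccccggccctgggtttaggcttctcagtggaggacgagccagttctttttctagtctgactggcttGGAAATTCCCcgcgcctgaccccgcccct

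Nfkbib encodes IkappaB-beta, a second classical inhibitor, which is degraded more slowly. The gene (ENSMUSG00000030595.15) spans 28758251 to 28767512 on chromosome 7, minus strand. In the authors' deposited table its mean was 118.6 normalized counts in room air and 162.8 after smoke, a difference of 0.44 on the log2 scale (SE 0.14; DESeq2 adjusted p 0.0361). That is a 1.36-fold rise with a 95% interval from 1.12 to 1.65. Adjusting over every gene with a p-value, without the low-count filter, gave 0.0571, and removing the GC and length trend gave a log2 fold change of 0.13 with an adjusted p of 0.850. Nfkbib shares 42 exonic bases (1.94% of its exons) with Sirt2 and 314 (14.5%) with Ccer2, both on the other strand. The libraries were made with a strand-specific kit, but whether the counting used strand is not stated. Sirt2 itself had a log2 fold change of 0.06 (SE 0.12) in the authors' deposited table, and Ccer2, the larger overlap, was not analysed here.

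Nfkbie, which encodes IkappaB-epsilon, had close group means of 107.1 and 105.8 normalized counts in the authors' deposited table. Its log2 fold change there was 0.03 with a 95% interval from -0.26 to 0.32 (DESeq2 adjusted p 0.945), and the log2 ratio of the means themselves was -0.02. The interval reaches up to a 1.25-fold rise, so a change as large as the 1.36-fold of Nfkbib lies outside it. Whether Nfkbie differed from Nfkbia or Nfkbib was not tested.

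The atypical inhibitor Nfkbiz encodes IkappaB-zeta, a nuclear protein that tunes NF-kappaB at a subset of its genes. Its mean was 119.0 normalized counts in room air and 107.4 after smoke in the authors' deposited table. That is -0.17 on the log2 scale, and it had a 95% interval from -0.63 to 0.28 (DESeq2 adjusted p 0.722).

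Tnfaip3 had the largest fold change of the 10 and did not pass the threshold. Its protein removes activating ubiquitin chains from signalling proteins upstream of IKK. In the authors' deposited table the mean was 84.66 normalized counts in room air and 140.5 after smoke. On the log2 scale this was 0.73 with an SE of 0.36, an unadjusted p of 0.0404 and an adjusted p of 0.194 (DESeq2). The 95% interval ran from 1.02-fold to 2.69-fold. Its SE lay at the 88.3rd percentile of the 1420 genes of similar mean, whose median SE was 0.20, and at that SE only a change of 2.04-fold or more would have been called. Without the GC and length trend the log2 fold change was 0.91, with an adjusted p of 0.212.

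Of the 5 subunits, 0 passed the threshold, where 7.69% of all genes tested did, so a count of 0 among 5 says little. Rela encodes the RelA subunit with a strong activation domain, the partner in the most common NF-kappaB dimer. Its mean was 476.3 normalized counts in room air and 509.6 after smoke in the authors' deposited table, which is 0.11 on the log2 scale with a 95% interval from -0.13 to 0.35 (DESeq2 adjusted p 0.658). Nfkb1 encodes a precursor that is processed into the DNA-binding partner of RelA. Its means were 683.8 and 639.4 in the authors' deposited table, and its log2 fold change was -0.09, with an interval from -0.34 to 0.16 (DESeq2 adjusted p 0.730). For both genes a change of about 1.3-fold would have been called, since the smallest callable folds at their SEs were 1.28 and 1.29.

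Rel encodes c-Rel, a subunit found mainly in blood cells. In the authors' deposited table its mean was 349.5 normalized counts in room air and 280.1 after smoke, with the most negative log2 fold change of the 10 at -0.30 (SE 0.14). The unadjusted p was 0.0276 and the adjusted p 0.157 (DESeq2), and the 95% interval ran from 0.674-fold to 0.977-fold. Rel also had the longest transcript of the 10, 7466 nucleotides, and the lowest GC content, 42.5%. Once the trend with these properties was taken out its log2 fold change was 0.01.

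Nfkb2 and Relb belong to the non-canonical branch, in which the processed Nfkb2 product pairs with RelB. In the authors' deposited table Nfkb2 had means of 220.5 and 249.0 normalized counts and a log2 fold change of 0.20, with an interval from -0.14 to 0.53 (DESeq2 adjusted p 0.532). Relb had means of 84.78 and 101.7 in the authors' deposited table and a log2 fold change of 0.31, with an interval from -0.15 to 0.76 (DESeq2 adjusted p 0.466). Nfkb2 shares 531 exonic bases (11.6%) with AC114539.1, not analysed here, and 299 (6.52%) with Psd, both on the other strand; Psd had means of 0.825 and 0.488 normalized counts in the authors' deposited table. Neither branch partner therefore passed the threshold, and the Relb interval still holds a 1.70-fold rise.

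**Figure D1:**
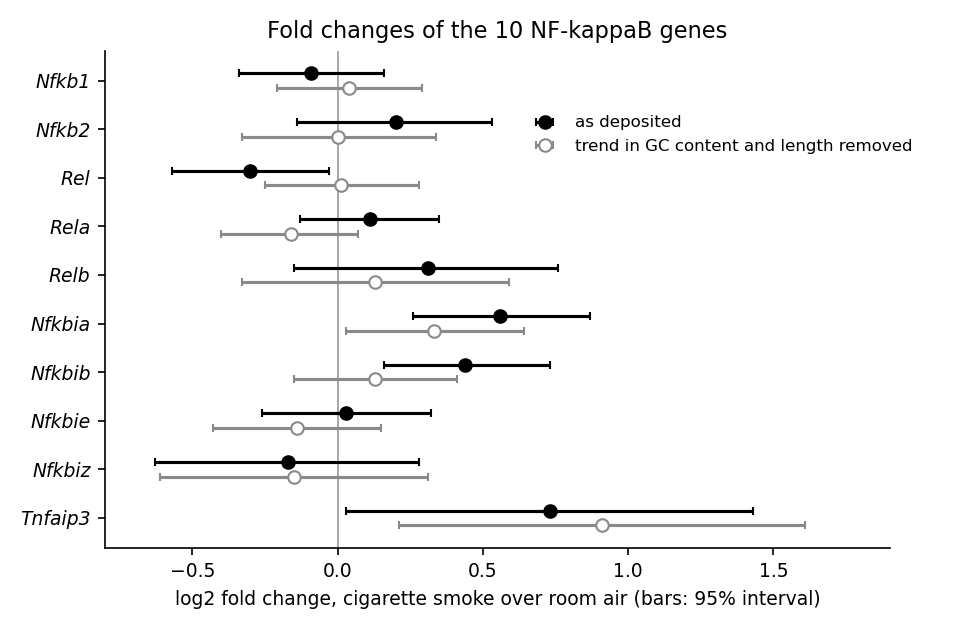
Log2 fold change of each gene, cigarette smoke over room air, with 95% intervals from the deposited standard errors; filled points are as deposited and open points have the trend in GC content and transcript length removed. The deposited intervals of Nfkbia, Nfkbib and Tnfaip3 lie above 0 and that of Rel below 0, though only Nfkbia and Nfkbib had an adjusted p under 0.05; the open point of Rel sits at 0.01 where the filled one is at -0.30.

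Levels were compared between genes only per kilobase of the coding transcript with the longest coding sequence. On that scale Rela (175 normalized counts per kilobase), Nfkb1 (166) and Nfkbia (163) were the highest in room air. After smoke Nfkbia was first at 238, followed by Rela at 188 and Nfkb1 at 155. Tnfaip3 was the lowest in room air at 19.1 and stood at 31.8 after smoke, above Nfkbiz, which went from 28.9 to 26.1. The remaining genes lay between 38.4 and 70.2 in room air and between 37.5 and 79.3 after smoke. Summed per kilobase, the 3 classical inhibitors went from 266 to 361, a ratio of 1.36, and the 5 subunits from 497 to 506, a ratio of 1.02. Nfkbia and Nfkbib made up the rise of the inhibitor sum, since Nfkbie went from 45.5 to 44.9, and the ratios were not tested against each other. With the GC and length trend removed, the log2 fold changes of Nfkbia, Nfkbib and Nfkbie were 0.33, 0.13 and -0.14. No spread over libraries can be attached to these levels, so the order of neighbours is a description only.

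**Figure D2:**
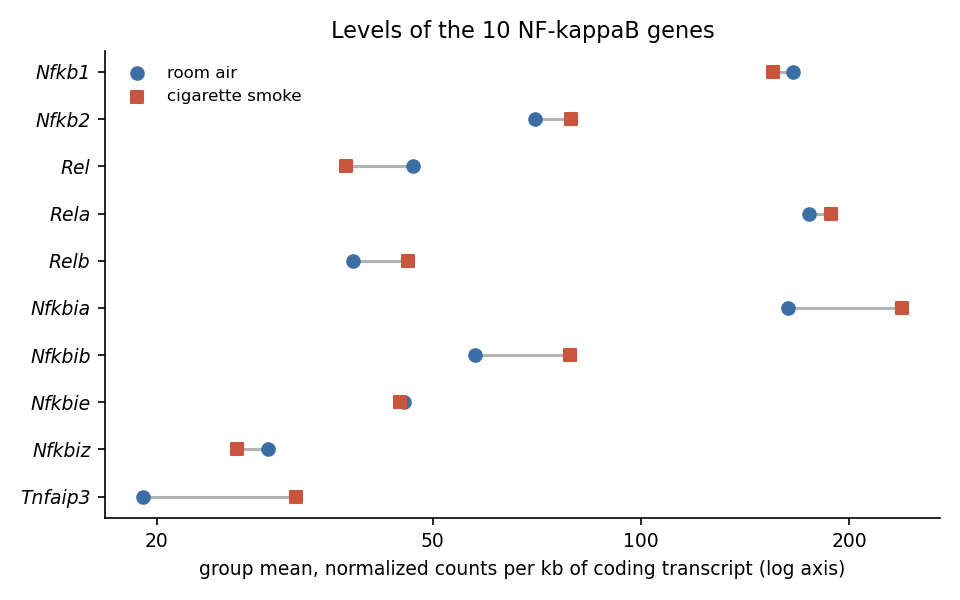
Group means of the 10 genes in normalized counts per kilobase of coding transcript, on a log axis, for room air (circles) and cigarette smoke (squares). Nfkbia moves from 163 to 238 and becomes the highest of the 10, while Rela and Nfkb1 stay near their room air levels.

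The promoters of the 10 genes were searched for the kappaB consensus decamer on both strands, in the 250 bases before each RefSeq start site (GRCm38.p6). Windows were at hand for 7 genes, and 5 of them held at least 1 match: Nfkb2, Rel, Nfkbia, Nfkbie and Tnfaip3. The spelling of the decamer was picked from several after these windows had been searched, so the counts are a description. By window, 7 of 10 held a match (70.0%), against 7.25% of all 32851 windows and 9.04% of the 10678 windows of genes tested. Nfkb2 had 3 of these windows, each with a match, and its windows 2 and 3 overlap, so windows are not separate genes. Matches can overlap: in Nfkb2 and Rel a pair of matches is shifted by 1 base. The windows of Rela and Nfkbib held none, which says only that these letters are not there. Nfkbib rose without a match in its window (chr7:28766645-28766894). That window lies inside the gene span given above, so the bases before that span were not searched. Rel, Nfkb2, Nfkbie and Tnfaip3 carried matches without passing the threshold. A match of each gene other than Nfkbia is shown, in capitals, to let the decamers be compared with that of Nfkbia.
Nfkb2, 39 bases before the start (chr19:46304688-46304717, plus strand): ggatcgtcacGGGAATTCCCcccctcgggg
Rel, 92 bases before the start (chr11:23771042-23771071, minus strand): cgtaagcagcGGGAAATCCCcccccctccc
Nfkbie, 106 bases before the start (chr17:45555584-45555613, plus strand): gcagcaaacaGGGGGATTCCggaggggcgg
Tnfaip3, 12 bases before the start (chr10:19015411-19015432, minus strand): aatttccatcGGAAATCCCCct

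Splicing of the 10 genes was seen in few events. JuncBASE events score the percent inclusion of an alternative segment. Of 10376 such events, 3 lay in these genes on their strand, and all 3 were retained introns. They were intron 12 of Nfkb1, intron 4 of Nfkb2 and intron 5 of Nfkbia. A further 2 events overlapped Nfkbib on the opposite strand, where Sirt2 lies, and were left out. The spliced junctions that compete with retention are shown, all in coding sequence, with the upstream exon in lower case and the downstream exon in capitals (GRCm38, intron positions).
Nfkb1 intron 12 (chr3:135608296-135612413, minus strand, 4118 bases): accctgaaatcaaagACAAAGAGGAAGTGC
Nfkb2 intron 4 (chr19:46306870-46306941, plus strand, 72 bases): tatcctactgtcaagATCTGTAACTATGAG
Nfkbia intron 5 (chr12:55489970-55490405, minus strand, 436 bases): ttcacagaggatgagCTGCCCTATGATGAC

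Retention of Nfkbia intron 5, the last of the gene, was measured in all 6 libraries. Room air replicate 1 had 2.86%, replicate 2 had 3.57% and replicate 3 had 6.90%. Cigarette smoke replicates 1 and 2 were at 0% and replicate 3 was at 0.78%. All smoke values lay below all room air values, so the groups did not overlap. The same non-overlap was found in 38.7% of the 1992 retained introns with 6 values, so it is common among introns in these libraries. Mean retention was 4.44% ± 2.16 (SD, n = 3) in room air. After smoke it was 0.260% ± 0.450 (SD, n = 3), lower by a difference of -4.18 points, where the median intron with a mean level under 10% differed by -3.63. The log2 odds of retention differed by -2.16 (SE 0.54; limma, p 0.00565, adjusted p 0.217), where the authors' deposited table gave this event a JuncBASE p of 0.43 and a corrected p of 1. In limma no event of the 10376 passed an adjusted p of 0.05, while 1125 (10.8%) had an unadjusted p under 0.05 in limma. Among only the 5933 events with a value in all 6 libraries, 23 passed, and Nfkbia had a limma adjusted p of 0.152. The size depends on the 1 percentage point added to each level, since 2 smoke values were 0%. With 5 points added it was -0.88 (limma adjusted p 0.388, 0 events called), and with 0.1 points -4.42 (limma adjusted p 0.257, 241 events called, 0 of them in the 10 genes). By exact permutation of the 6 libraries, two-sided, p was 0.1, and no smaller p is possible with 3 libraries in each group. Without cigarette smoke replicate 3, the only smoke library with a value above 0, the adjusted p in limma was 0.0438, where 10.4% of all events were called.

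The other introns did not separate the groups. Nfkb1 intron 12 had 3.23% retention in room air replicate 1, 5.77% in replicate 2 and 1.72% in replicate 3. Cigarette smoke replicate 2 was at 0% and replicate 3 at 2.47%, and replicate 1 had no value (limma, log2 odds difference -1.23, SE 0.80, adjusted p 0.548). Nfkb2 intron 4 was retained at 0%, 6.25% and 6.67% in room air and at 0% and 6.25% in the same 2 smoke libraries (limma, log2 odds difference -0.52, SE 1.34, adjusted p 0.870). In both introns the ranges of the groups overlapped, and the read counts behind each level are unknown.

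**Figure D3:**
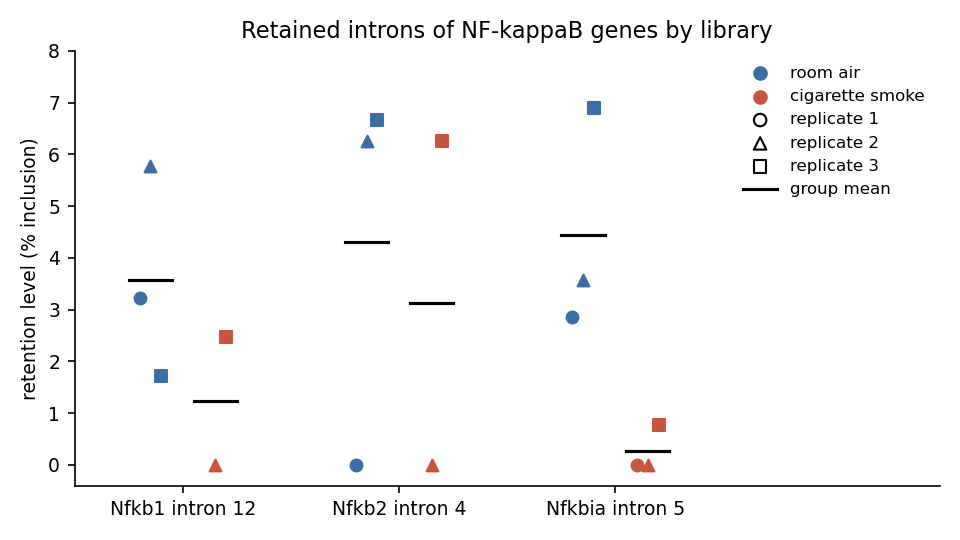
Retention level in percent inclusion of each of the 3 introns in each library, room air in blue and cigarette smoke in red, with replicate numbers as symbols and group means as bars; smoke replicate 1 has a value for Nfkbia only. The Nfkbia smoke points lie between 0% and 0.78%, below the lowest room air point at 2.86%, and the points of the other introns overlap.

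The authors' deposited rMATS table, a second comparison of intron retention that counts reads at the junctions and inside the intron, listed 4 introns of these genes. One was the same Nfkbia intron 5, which differed by 2.7 percentage points between the mean levels of sample set 1 and set 2 with a false discovery rate of 0.0127. Neither set is named there as room air or smoke, and the sign is therefore not read. A false discovery rate under 0.05 was given to 14.5% of its 3887 introns, and 4.43% also differed by at least 10 points, which the Nfkbia intron did not. The other 3 were introns 5, 7 and 8 of Tnfaip3, with differences of 1.6, 1.2 and 1.9 points and false discovery rates of 1.00, 1.00 and 0.345 in the authors' deposited table. Nfkbia was thus the only 1 of the 10 genes listed by both programs. The libraries behind the rMATS sets are not named, so the measures may share libraries and are not taken as independent.

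The rest of the pathway was read from 3 lists. Of 24 genes of the IKK complex and its upstream kinases and adaptors, 1 rose and 1 fell (8.33%, close to the 7.69% of all genes), with a median log2 fold change of -0.06. Irak2, a kinase of the Toll-like and interleukin receptor complex, had a log2 fold change of 0.52 (SE 0.17; adjusted p 0.0348), the largest of its list among genes with a mean of at least 50. Map3k7, which encodes the kinase TAK1 that activates IKK, had -0.31 (SE 0.10; adjusted p 0.0369), both in the authors' deposited table from DESeq2. With the GC and length trend removed neither passed the threshold: Irak2 had a log2 fold change of 0.41 (adjusted p 0.243) and Map3k7 one of -0.10 (adjusted p 0.811). Without the low-count filter 0 of the 24 passed, where 3.55% of all genes did.

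Of 22 other inhibitors and brakes, among them Bcl3, Cyld and Tnip1, 0 passed the threshold in the authors' deposited DESeq2 table. Over all genes tested the share was 7.69%, so 0 of 22 says little. The median log2 fold change of the list was 0.01. The largest change of that list at a mean of at least 50 was that of Pdlim2, at 0.50 (SE 0.27, DESeq2 adjusted p 0.256).

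The third list holds known NF-kappaB target genes. Of its 35 genes 34 were tested, 10 rose, 0 fell and 32 were above 0, with a median log2 fold change of 1.10. The share past the threshold was 29.4%, against 7.69% of all genes. Earlier results on these libraries were known when the list was drawn up, so it is not independent evidence of its direction. Those that rose include the enzymes Ptgs2 (42.52 to 300.8 normalized counts, log2 fold change 2.83, SE 0.60) and Nos2 (15.75 to 106.7, 2.78, SE 0.73) in the authors' deposited table. They also include the secreted factors Ccl2 (1.68, SE 0.36), Il1b (1.99, SE 0.58) and Saa3 (1.59, SE 0.49), on the log2 scale of that table. The remaining 5 were the urokinase receptor gene Plaur (1.88, SE 0.28), the stress gene Ier3 (2.44, SE 0.63), the mitochondrial superoxide dismutase Sod2 (0.64, SE 0.20), Marcksl1 (0.72, SE 0.19) and the survival gene Bcl2a1d (2.54, SE 0.55). Bcl2a1d has close copies in the genome, so its reads are uncertain, and its means were 3.991 in room air and 21.88 after smoke. Room air means were also low for Il1b (17.46), Saa3 (21.22) and Ier3 (23.14). With a mean of at least 50 required, 7 target genes passed, against 10.0% of all genes with such a mean. After the GC and length trend was removed, 6 target genes were past the threshold, where 1.27% of all genes were: Plaur, Ptgs2, Ccl2, Bcl2a1d, Nos2 and Sod2, and the median of the list was 0.96. Of the 4 that no longer passed, Ier3 had a log2 fold change of 2.14 (adjusted p 0.0509), Il1b 1.88 (0.0672), Saa3 1.51 (0.0985) and Marcksl1 0.38 (0.422).

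**Figure D4:**
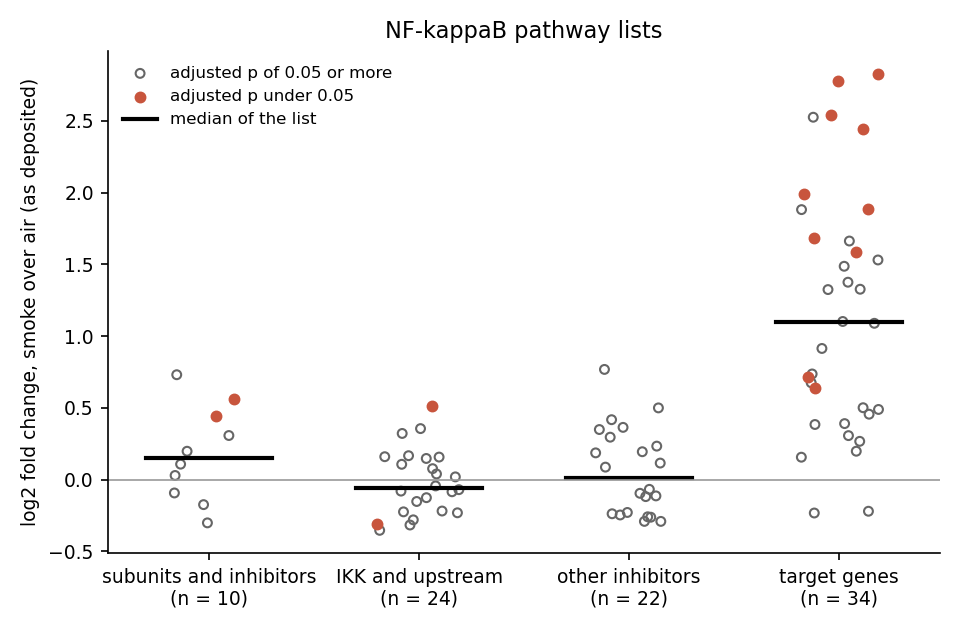
Deposited log2 fold change of each tested gene in the 4 pathway lists, with filled points for an adjusted p under 0.05 and bars for list medians. The target genes spread upward around a median of 1.10, and the other lists lie around medians of 0.15, -0.06 and 0.01.

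The same fit held 18 other libraries, which are not analysed here, and their mean can be worked out from the deposited mean over all 24. For each of the 10 genes it was above the room air mean, by 2.87-fold (Rela) to 91.8-fold (Tnfaip3), with a median of 10.3-fold. Over 8985 genes with a room air mean of at least 50 the median ratio was 1.06, and 15.8% were at 2-fold or more. Since those libraries were part of the deposited fit, their spread entered the standard errors used above.

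**Figure D5:**
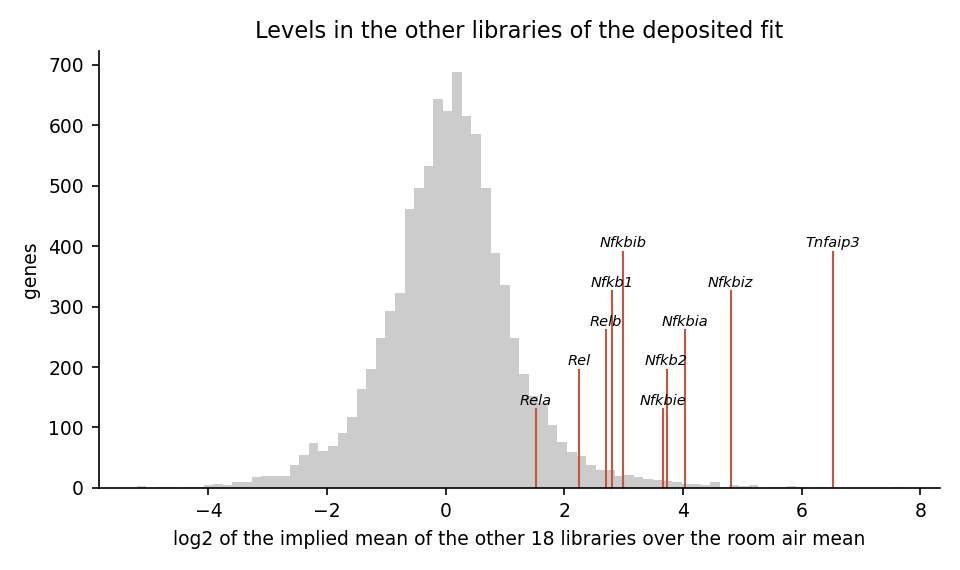
Histogram over 8985 genes of the log2 ratio of the implied mean of the other 18 libraries to the room air mean, with a red line for each of the 10 genes. All 10 lie to the right of the bulk of the genes, whose median ratio is 1.06, with Tnfaip3 farthest at 91.8-fold.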

How the data were processed

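The authors deposited a gene table from DESeq2 (named in the submitters' processing notes, with STAR and mm10) whose signal columns are, per the file headers, group means of size-factor-normalized counts. Its log2 fold changes and standard errors, Wald score and p-values are the authors' deposited values from a fit to 24 libraries, 6 of them described here. JuncBASE percent inclusion per library was deposited by the authors, as were its difference score and p-values and the rMATS difference score. In that rMATS table, 6 columns of per-sample values were not used. The counting program and filters are not given in the sources used here. With no expression per library, the planned test was replaced by the authors' adjusted p under 0.05, as the design provided. The members and lists were chosen with earlier results of these data known. All members are named, and of each pathway list the genes past the threshold and the largest change at a mean of at least 50.

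Levels p were turned into log2((p + 1)/(100 - p + 1)) and fitted with limma 3.58.1 (R 4.3.3) over 10376 events with at least 2 values in each group (1 where a library was left out), with Benjamini-Hochberg adjustment. Pseudocounts of 5 and 0.1 points were the alternatives. The GC and length trend was fitted over 12071 genes by weighted least squares with splines of 4 degrees of freedom (patsy 1.0.2), from the longest GENCODE M21 transcript, and p-values were recomputed. The promoter decamer was chosen after 6 spellings of the kappaB motif had been searched in these windows. The limma fit and the trend removal were tested on simulated data, and both mostly missed changes about as small as those of Nfkbia. An absent call therefore does not show an absent change. Intervals are 95% normal intervals.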

Additional observations from a re-analysis of the deposited data

Results flagged for a closer look

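All 10 genes were flagged because a column outside the comparison, the mean over all 24 libraries of the deposited fit, held more signal than the room air controls. The implied mean of the other 18 libraries over the room air mean was 7.00 for Nfkb1, 13.2 for Nfkb2, 4.75 for Rel, 2.87 for Rela and 6.49 for Relb. Among the inhibitors it was 16.3 for Nfkbia, 7.91 for Nfkbib and 12.7 for Nfkbie, and it was 27.9 for Nfkbiz and 91.8 for Tnfaip3. The 95th percentile over 8985 genes was 3.62. What those libraries are was not analysed here.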

How the results depend on the processing

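The 2 calls among the 10 genes stayed 2 at a mean of at least 50, where 10.0% of all genes were called, and at a threshold of 0.1, but became 1 without the low-count filter and 0 with the GC and length trend removed; the cause was not tested. With that trend removed, the log2 fold changes of Nfkbia and Nfkbib were 0.33 and 0.13, no longer past the threshold, and the signs turned for Nfkb1 (0.04), Rel (0.01), Rela (-0.16) and Nfkbie (-0.14), none of them called in either fit. The ratio of means turned Nfkbie to -0.02. Pathway calls went from 12 to 6 under the trend, while those over all genes went from 7.69% to 1.27%; they were 11 without the low-count filter and 9 at a mean of at least 50. Subtracting the median of all genes changed no call and no sign of a member.

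Leaving out each library in turn, the intron calls ranged from 0 to 1, the log2 odds difference from -2.44 to -1.84 for Nfkbia, from -2.15 to -0.32 for Nfkb1 and from -2.00 to 0.95 for Nfkb2. At both ends of the Nfkb1 and Nfkb2 ranges the smoke arm held 1 value, assumed to vary like the rest. The lone call, Nfkbia without cigarette smoke replicate 3, came with -2.44. The retention difference of Nfkbia ranged from -4.98 to -2.96 points. Libraries share only a number: correlations of same-numbered pairs were 0.018, -0.040 and -0.089. With the replicate block the Nfkbia difference was -2.16 with an adjusted p of 0.609 in limma. Those of Nfkb1 and Nfkb2 were -1.24 and -1.52, against -1.23 and -0.52 without the block, and the block changed no call. Requiring a 10-point difference left 0 rMATS introns. No member intron had a mean level of at least 10%, so that alternative gave no value. Averaging all 3 introns over the 5 libraries with every value, an alternative chosen after seeing the data, gave -2.52 points. Depth per library is unknown, which limits what an absent call shows.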
